A study of Rattus norvegicus with 28 samples.

Results

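The transcripts of pyruvate dehydrogenase and of the enzymes that switch it were followed across all groups of the series. The set held 9 genes: the kinases Pdk1, Pdk2, Pdk3 and Pdk4, the phosphatase catalytic subunits Pdp1 and Pdp2, the E1 subunits Pdha1 and Pdhb, and the E2 subunit Dlat. They were taken by symbol from the expression table, with the transcript of the highest mean kept where a symbol had several, which gave 9 of 17455 symbols. Of the 9 genes only Pdp1 had a further transcript (NM_001271108), which was dropped and not examined. All but Pdk4 had a mean of at least 1 TPM (a transcript level scaled to length and library size) and entered the test, so 8 of 9 genes were tested.

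Pyruvate dehydrogenase is the mitochondrial complex that turns pyruvate into acetyl-CoA and so joins glycolysis to the citric acid cycle. E1 removes carbon dioxide from pyruvate, and E2 passes the remaining acetyl group to coenzyme A. Pyruvate dehydrogenase kinases phosphorylate the alpha subunit of E1 and shut the complex off, and pyruvate dehydrogenase phosphatases remove the phosphate and turn it on again. Beta cells oxidise much of their glucose carbon in mitochondria, and the ATP made there couples glucose to insulin secretion.

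The cells were INS-1, a rat insulinoma line that secretes insulin, measured by bulk RNA-seq. They were wild type (WT) or Med14 S983A, in which an alanine replaces a serine of Med14. Med14 belongs to Mediator, the complex that connects transcription factors with RNA polymerase II. Cells of both genotypes were untreated (CON) or exposed for 1, 8 or 16 h to exendin-4 (Ex-4, 10 nM), a peptide agonist of the GLP-1 receptor, or forskolin (FSK, 10 µM), a direct activator of adenylyl cyclase. Each of the 14 groups had 2 libraries, and the same CON libraries of a genotype served all 6 of its treatments. The labels gave no time for CON. In comparisons with CON, effects of an agent and of hours in culture therefore cannot be told apart. The knock-in lines were single-cell clones made by genome editing, and the labels did not say which clone a library came from, so effects of the substitution and of the clone cannot be told apart. The labels did not say that the libraries of a group came from separate cultures, so the tests measured the spread between these libraries alone.

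Libraries held 42551133 to 92635979 fragments, and 1 library, replicate 2 of Med14 S983A after 8 h of FSK, was the deepest. Replicates correlated at r = 0.998 to 0.999 over all tested genes. All 10 beta cell markers examined were above 1 TPM, whereas markers of delta, PP, acinar, endothelial cells and fibroblasts were at or near 0 (sums of at most 0.699 TPM), and the 2 immune markers summed to 0.088 to 1.75 TPM, mostly Cd68. Of the 4 alpha cell markers Gcg alone was present, at 6.09 to 1340 TPM. RNA-seq of bulk cells cannot tell apart fewer cells with a transcript from less of it in each cell. A gene passed the test where its log2(TPM + 1) differed with a limma adjusted p under 0.05 over 10275 genes and by more than 1.5-fold. The median over all genes was below CON in every treatment on the TPM scale, most in WT and Med14 S983A cells after 8 h of FSK (-0.34 and -0.28 on the log2 scale), and calls of higher and lower genes shifted with the scaling there, from 901 and 3579 in WT on TPM to 1930 and 1848 after centring each library on its median. Scaling to the ERCC spike-ins likewise turned 363 higher and 851 lower calls in WT after 16 h of Ex-4 into 949 and 286. Besides TPM, 4 other scalings were run (median centring, ERCC scaling, and the count tests edgeR with TMM and DESeq2 with ERCC factors), and calls that they changed are given with the results.

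The 4 sequences below are the 250 bases upstream of the start site of the 3 expressed kinases and of Pdha1, shown because the kinases share an enzyme activity while their transcripts took different courses, and because Pdk2 and Pdha1 moved in opposite directions. They come from RefSeq on the rat build GRCr8, read 5′ to 3′ on the strand of the gene. Of the 9 genes 7 had an entry. Capitals mark matches on either strand to the cAMP response element TGACGTCA, its core TGACG, the AP-1 site TGACTCA, the E-box CACGTG or the hypoxia response core ACGTG, which is also contained in the E-box.
Pdk1 (chr3:77113264-77113513, plus strand): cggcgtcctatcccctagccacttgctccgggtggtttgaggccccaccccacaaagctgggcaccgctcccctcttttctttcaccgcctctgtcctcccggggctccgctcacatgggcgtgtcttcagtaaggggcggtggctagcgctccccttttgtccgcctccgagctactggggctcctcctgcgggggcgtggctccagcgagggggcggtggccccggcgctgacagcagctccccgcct
Pdk2 (chr10:80483913-80484162, minus strand): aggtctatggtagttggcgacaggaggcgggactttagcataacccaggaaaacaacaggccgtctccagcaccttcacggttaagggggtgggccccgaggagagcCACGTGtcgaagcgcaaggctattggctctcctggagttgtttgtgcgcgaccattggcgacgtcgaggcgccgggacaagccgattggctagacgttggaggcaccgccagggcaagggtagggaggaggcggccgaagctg
Pdk3 (chrX:62547372-62547621, minus strand): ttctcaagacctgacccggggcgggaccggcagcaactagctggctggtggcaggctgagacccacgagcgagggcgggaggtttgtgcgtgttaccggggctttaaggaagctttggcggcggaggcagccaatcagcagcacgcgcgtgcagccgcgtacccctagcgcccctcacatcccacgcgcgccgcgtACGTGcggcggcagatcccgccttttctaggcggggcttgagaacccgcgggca
Pdha1 (chrX:38508908-38509157, plus strand): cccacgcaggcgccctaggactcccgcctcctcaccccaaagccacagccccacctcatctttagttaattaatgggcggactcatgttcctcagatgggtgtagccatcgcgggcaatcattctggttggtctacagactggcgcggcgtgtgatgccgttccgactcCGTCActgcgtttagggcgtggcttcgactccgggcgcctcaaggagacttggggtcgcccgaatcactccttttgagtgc
Neither a full cAMP response element nor an AP-1 site was found in these 4 windows. Among all 33469 rat promoters cut to the same length, 1.59% held the full element, 4.05% the AP-1 site and 18.2% the core TGACG. The window of Pdk2 held an E-box at position -143 from the start site, a motif found in 5.59% of all windows. That of Pdk3 held ACGTG at -54, found in 16.6%. Pdha1 had TGACG on the opposite strand at -81, and Pdk1 had none of the 5 motifs searched. GCGTG, which was outside the search, occurred in the printed windows of Pdk1, Pdk3 and Pdha1 and not in that of Pdk2. Among the windows not shown, Pdhb had an AP-1 site at -111 and E-boxes at -186 and -97. Dlat had TGACG at -212 (opposite strand) and -68 and ACGTG at -247, and Pdk4 had none of the 5. These matches describe letters and do not show binding.

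Pdk2 was the gene of the set that moved most. This kinase is a broadly expressed member of the family. Its transcript (NM_030872) lies on chromosome 10 of rn6, at 82838270 to 82852758 on the minus strand. In WT cells it measured 56.3 and 52.3 TPM at CON, 54.4 and 51.3 after 1 h of Ex-4, 32.3 and 32.2 after 8 h and 31.3 and 32.9 after 16 h. With FSK it measured 50.1 and 49.1 TPM after 1 h, 12.1 and 11.3 after 8 h and 13.9 and 13.6 after 16 h. All WT libraries at 8 and 16 h therefore lay below all those at CON and 1 h, and those treated with FSK lay lowest. The 1 h values of Ex-4 overlapped CON, and those of FSK lay just under it.

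At 8 and 16 h Pdk2 was lower still in Med14 S983A cells. The level was 50.6 and 52.2 TPM at CON and 47.6 and 44.8 after 1 h of Ex-4, then 24.2 and 24.98 after 8 h and 19.9 and 19.7 after 16 h. With FSK it was 46.6 and 40.8 TPM after 1 h, 5.92 and 5.73 after 8 h and 9.02 and 8.99 after 16 h. At 8 and 16 h each pair of Med14 S983A libraries lay below the WT pair of the same treatment, although the CON levels of both genotypes were close.

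Against CON of the same genotype, Pdk2 fell in all 8 comparisons at 8 and 16 h (SE 0.0566 on the log2 scale in each). In WT the log2 differences were -0.73 and -0.74 with Ex-4 (adjusted p = 6.5e-11 and 4.3e-11) and -2.13 and -1.91 with FSK (adjusted p = 4e-21 and 4.8e-20). In Med14 S983A they were -1.03 and -1.33 with Ex-4 and -2.94 and -2.39 with FSK, with adjusted p between 5.5e-24 and 1.4e-13. The mean after 8 h of FSK was 0.215 of CON in WT and 0.113 of CON in Med14 S983A. The WT responses to Ex-4 were the ones that depended on scaling, since that at 16 h was under 1.5-fold after median centring (-0.55), ERCC scaling (-0.43) and DESeq2 on ERCC factors (-0.44), and that at 8 h with DESeq2 (-0.58). The other 6 passed under all 5 scalings.

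Pdk1, a kinase known as a target of hypoxia-inducible factor, fell in WT cells at 8 h. Its transcript (NM_053826) lies on chromosome 3 at 58530870 to 58558029 on the plus strand. The WT libraries measured 51.1 and 46.9 TPM at CON, 49.0 and 51.3 after 1 h of Ex-4, 31.2 and 31.8 after 8 h and 34.5 and 35.4 after 16 h. With FSK they measured 54.7 and 50.7 TPM after 1 h, 18.6 and 18.7 after 8 h, and 39.6 and 38.6 after 16 h. The low point was thus at 8 h with both agents, and the 16 h values lay between the 8 h values and CON.

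In Med14 S983A cells Pdk1 measured 37.7 and 36.1 TPM at CON, 42.5 and 40.8 after 1 h of Ex-4, 37.7 and 35.5 after 8 h and 36.6 and 36.9 after 16 h. With FSK it measured 36.5 and 40.2 TPM after 1 h, 23.7 and 25.5 after 8 h and 47.4 and 47.4 after 16 h. The Ex-4 libraries at 8 and 16 h overlapped CON, whereas the 8 h FSK libraries lay below and the 16 h FSK libraries above it. In WT cells Pdk1 fell after 8 h of FSK (-1.34 ± 0.0537, log2 difference ± SE, adjusted p = 1.3e-17) and after 8 h of Ex-4 (-0.62, adjusted p = 5.1e-10). The second call was under 1.5-fold in the 4 other scalings (-0.55 to -0.47) and without replicate 1 of WT CON (-0.56). After 16 h of FSK the WT difference was -0.32, under the fold limit, and it turned to 0.06 with ERCC scaling and 0.05 with DESeq2. No Med14 S983A response of Pdk1 passed, with -0.57 at 8 h of FSK and 0.35 at 16 h, although the first passed with ERCC scaling (-0.66) and DESeq2 (-0.67) and the second with DESeq2 (0.59). The 8 h value also passed without replicate 2 of Med14 S983A CON (-0.60) or of the 8 h FSK group (-0.62).

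Pdk3, a kinase of the same family, had no lower call in any treatment and its highest levels in Med14 S983A cells. The gene (NM_001106581) lies on the X chromosome at 62836131 to 62903554 on the minus strand. In WT cells it measured 45.7 and 44.8 TPM at CON, 46.1 and 43.9 after 1 h of Ex-4, 45.5 and 52.1 after 8 h and 32.2 and 34.8 after 16 h. With FSK the WT libraries measured 46.9 and 44.2 TPM after 1 h, 41.3 and 39.9 after 8 h and 30.2 and 32.3 after 16 h. The WT pairs at 16 h and at 8 h of FSK lay below CON, those at 16 h by more.

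On TPM every Med14 S983A library held more Pdk3 than every WT library, though narrowly (lowest 52.5 TPM, against a highest WT value of 52.1 TPM). This order of single libraries was not examined under the other scalings. The mutant cells measured 70.5 and 63.9 TPM at CON, 73.4 and 71.2 after 1 h of Ex-4, 84.9 and 80.9 after 8 h and 57.4 and 52.5 after 16 h. With FSK they measured 64.5 and 68.6 TPM after 1 h, 104 and 104 after 8 h and 57.3 and 56.8 after 16 h. The 8 h libraries lay above CON with both agents and the 16 h libraries below it. One response of Pdk3 passed, a rise after 8 h of FSK in Med14 S983A (0.62 ± 0.0600, adjusted p = 5.4e-10), which was under 1.5-fold with ERCC scaling (0.53), with DESeq2 (0.55) and when replicate 2 of Med14 S983A CON was left out (0.55). The WT difference at 8 h of FSK was -0.15, and it was 0.24 after median centring and 0.17 with edgeR.

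Pdk4, the kinase that many tissues induce in fasting, was not detectable at this depth. It was at 0 in 27 of 28 libraries and at 0.05 TPM, about 2 fragments, in replicate 1 of WT after 8 h of FSK. A count of 3 fragments would correspond to 0.0399 to 0.0902 TPM depending on the library.

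**Figure D1:**
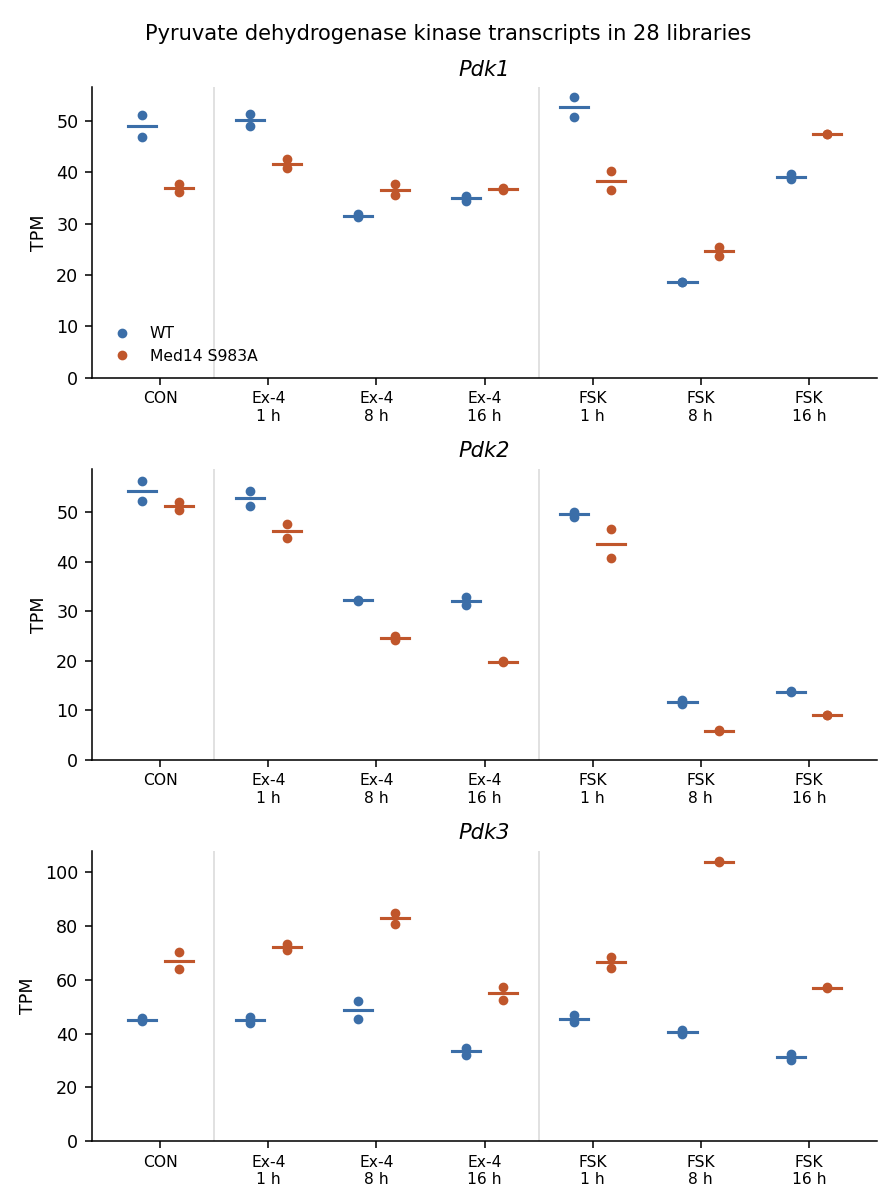
TPM (linear axis from 0) of the 3 expressed kinases in each of 28 libraries, with WT in blue and Med14 S983A in orange. Points are libraries and bars the mean of 2, and the reader should see Pdk2 fall from 54.3 to 11.7 TPM in WT and from 51.4 to 5.82 TPM in Med14 S983A by 8 h of FSK while Pdk3 reaches 104 TPM in the mutant.

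The make-up of the kinase transcripts differed between groups. In each library the TPM of the 3 kinases was summed and the share of each was taken, a quantity that scaling does not alter and that was described without a test. At CON in WT, Pdk1, Pdk2 and Pdk3 held 33.0%, 36.5% and 30.5% of the sum (means of 2 libraries), so that the 3 were near one another. After 8 h of FSK in WT they held 26.3%, 16.4% and 57.2%, and after 16 h 46.5%, 16.3% and 37.2%. Pdk3 thus held the largest share at 8 h while its own mean was 40.6 TPM against 45.2 at CON, and Pdk1 held the largest share at 16 h.

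In Med14 S983A cells Pdk3 already led at CON, with 43.2% against 33.1% for Pdk2 and 23.7% for Pdk1. After 8 h of FSK Pdk3 held 77.8% and 76.9% of kinase transcripts in the 2 libraries and Pdk2 only 4.44% and 4.23%. At 16 h of FSK the shares were 50.3% for Pdk3, 41.8% for Pdk1 and 7.93% for Pdk2. With Ex-4 the share of Pdk2 was 17.1% at 8 h and 17.8% at 16 h in the mutant, beside 28.7% and 32.0% in WT.

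Summed kinase transcripts per Pdha1 transcript were 3.62 and 3.34 in the WT CON libraries and 0.790 and 0.751 after 8 h of FSK. The Med14 S983A libraries gave 2.58 and 2.72 at CON and 1.11 and 1.08 after 8 h of FSK. With 16 h of Ex-4 the ratio was 1.6 and 1.74 in WT and 1.34 and 1.32 in the mutant. Replicates lay close together in all of these groups, and both genotypes ended lower than they began under either agent.

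**Figure D2:**
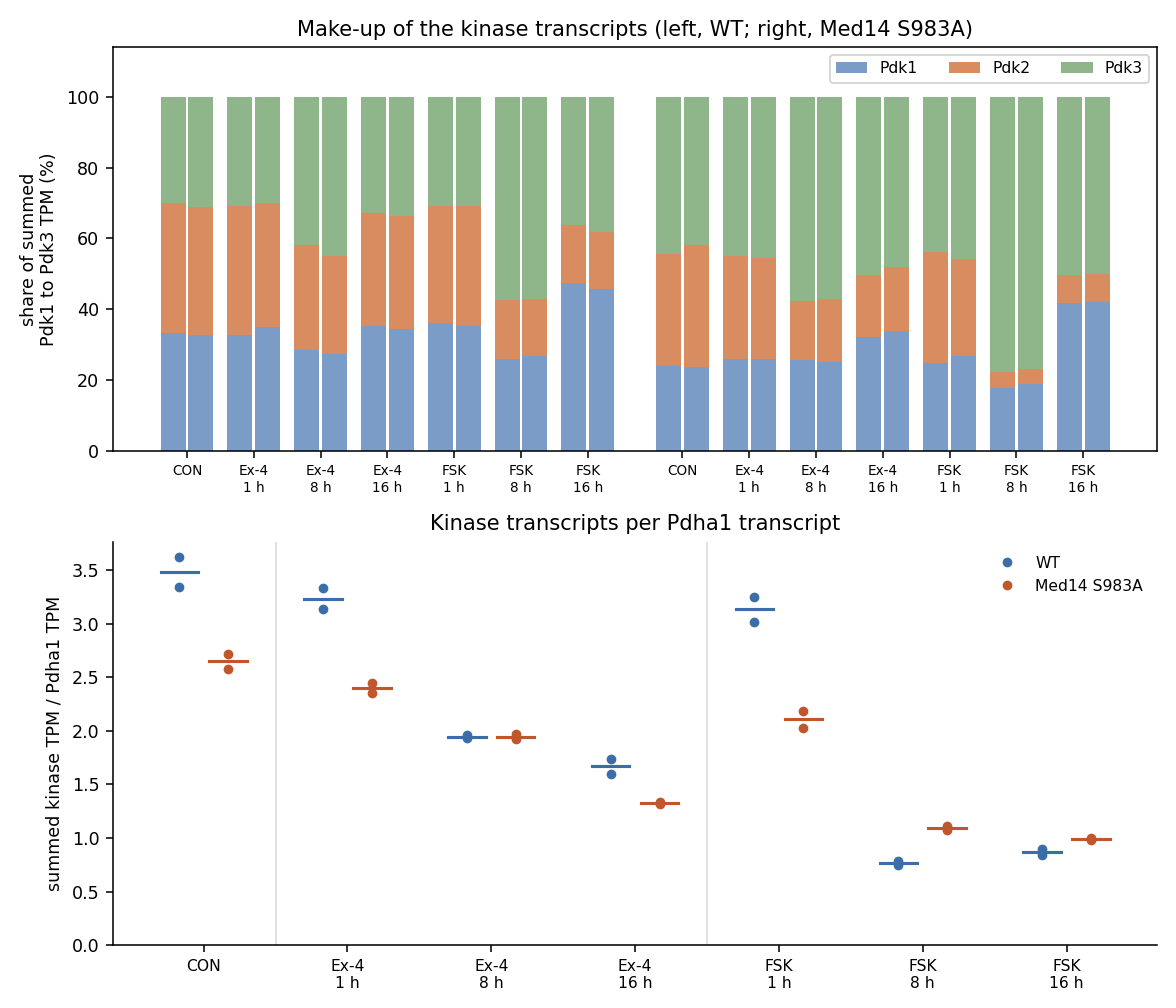
Top, share in percent of Pdk1, Pdk2 and Pdk3 in their summed TPM, 1 bar per library, WT left and Med14 S983A right. Bottom, summed kinase TPM divided by Pdha1 TPM per library (points) with the mean of 2 (bars), where WT falls from a mean of 3.48 at CON to 0.770 at 8 h of FSK and Med14 S983A from 2.65 to 1.09.

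Among the subunits of the complex, Pdha1 rose with FSK while Pdhb, its partner in E1, did not. Pdha1 (NM_001004072, X chromosome, 37329779 to 37343410, plus strand) encodes the E1 alpha subunit that carries the phosphorylation sites. It measured 42.3 and 43.1 TPM at CON in WT, 44.9 and 46.7 after 1 h of Ex-4, 56.5 and 59.3 after 8 h and 61.1 and 59.1 after 16 h. With FSK the WT libraries measured 46.7 and 47.6 TPM after 1 h, 91.2 and 93.2 after 8 h and 93.2 and 100.035 after 16 h. No treated pair overlapped CON, and the FSK pairs at 8 and 16 h lay far above the rest.

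In Med14 S983A cells Pdha1 measured 61.5 and 55.9 TPM at CON, 66.8 and 66.7 after 1 h of Ex-4, 74.3 and 73.7 after 8 h and 84.8 and 82.9 after 16 h. With FSK it measured 67.4 and 73.6 TPM after 1 h, 120.3 and 125.9 after 8 h and 115.4 and 113.4 after 16 h. The mutant libraries lay above the WT pair of the same treatment at every time. Pdha1 rose after 8 and 16 h of FSK in WT (1.09 and 1.16, SE 0.0474, adjusted p = 7.3e-17 and 3.1e-17) and in Med14 S983A (1.06 and 0.95, adjusted p = 1.1e-16 and 1.7e-15). These 4 calls held in all 5 scalings. With 16 h of Ex-4 the WT difference was 0.48, under 1.5-fold on TPM, but it passed in the other 4 (0.64 to 0.81). The WT difference at 8 h of Ex-4, 0.43, passed with DESeq2 (0.61).

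Pdhb, the E1 beta subunit (NM_001007620, chromosome 15, 18540913 to 18546855, plus strand), had the highest mean of the set. Its WT libraries ranged from 104.1 TPM after 16 h of Ex-4 to 147.6 TPM after 1 h of FSK, and the mutant libraries from 96.7 to 114.4 TPM. No treatment response of Pdhb passed. In WT the log2 difference was -0.46 at 16 h of Ex-4, -0.32 at 8 h of FSK and -0.39 at 16 h of FSK, and in Med14 S983A the 6 differences lay between -0.12 and 0.05. The direction of several of these small differences turned with the scaling, among them WT at 8 h of FSK, which was 0.07 after median centring.

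Because Pdha1 and Pdhb form E1 together, their ratio was taken within each library. Pdha1 over Pdhb was 0.294 and 0.293 at CON in WT and 0.537 and 0.567 in Med14 S983A. After 8 h of FSK it was 0.781 and 0.809 in WT and 1.20 and 1.20 in Med14 S983A, and after 16 h of Ex-4 it was 0.572 and 0.568 in WT and 0.849 and 0.829 in the mutant. The Med14 S983A pair lay above the WT pair in every condition.

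Dlat (NM_031025, chromosome 8, 55062549 to 55087832, minus strand) encodes the E2 core, to which the kinases bind. It measured 15.3 and 13.9 TPM at CON in WT, 20.04 and 21.9 after 8 h of FSK and 21.03 and 21.8 after 16 h. In Med14 S983A it measured 12.5 and 12.9 TPM at CON, 22.2 and 21.7 after 8 h of FSK and 18.2 and 17.4 after 16 h. All FSK libraries at 8 and 16 h lay above CON of their genotype, and the Ex-4 libraries ranged only from 12.5 to 18.3 TPM. Dlat rose after 8 h of FSK in Med14 S983A (0.74 ± 0.0583, adjusted p = 1.1e-11). The WT differences at 8 and 16 h of FSK were 0.49 and 0.52, under 1.5-fold on TPM, and passed in 2 and in all 4 of the other scalings (0.74 to 0.93 where they passed), and the second also without replicate 1 of WT CON (0.59). The mutant difference at 16 h of FSK, 0.45, passed after median centring (0.60), ERCC scaling (0.68) and DESeq2 (0.71).

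The phosphatases were the lowest expressed tested genes together with Dlat. Pdp1, the calcium-stimulated form (NM_019372, chromosome 5, 25577595 to 25584278, minus strand), lay on opposite sides of CON in the 2 genotypes at 1 h. WT libraries measured 18.6 and 18.2 TPM at CON, 21.7 and 21.5 after 1 h of Ex-4 and 23.7 and 23.3 after 1 h of FSK. Med14 S983A libraries measured 17.9 and 15.4 TPM at CON, 14.2 and 13.3 after 1 h of Ex-4 and 8.77 and 9.06 after 1 h of FSK. No pair overlapped its CON, with the WT pairs above and the mutant pairs below.

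At 8 and 16 h the libraries of both genotypes lay below CON. In WT it measured 14.1 and 13.4 TPM after 8 h of Ex-4, 13.3 and 13.8 after 16 h, 10.8 and 10.5 after 8 h of FSK and 9.82 and 11.05 after 16 h of FSK. The mutant libraries measured 14.1 and 12.9 TPM after 8 h of Ex-4, 14.6 and 12.3 after 16 h, 8.65 and 9.10 after 8 h of FSK and 8.78 and 9.79 after 16 h of FSK. The late levels of the genotypes were near each other, and overlapped in the Ex-4 groups. Pdp1 fell after 1 h of FSK in Med14 S983A (-0.83 ± 0.0764, adjusted p = 1.3e-09), whereas the WT value at 1 h was 0.34 (adjusted p = 0.00082, under the fold limit).

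Pdp1 also fell after 8 and 16 h of FSK, with log2 differences of -0.73 and -0.77 in WT and of -0.84 and -0.78 in Med14 S983A. The WT calls were lost at 8 h after median centring (-0.34) and with edgeR (-0.47), and at 16 h after median centring (-0.53), ERCC scaling (-0.41) and DESeq2 (-0.44). The mutant calls were lost at 8 h after median centring (-0.50) and at 16 h with ERCC scaling (-0.57). The call at 1 h in the mutant held in all 5.

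Pdp2, the phosphatase that does not need calcium (NM_145091, chromosome 19, 597427 to 601469, minus strand), had group means between 12.1 and 19.1 TPM, and no treatment response passed on TPM. WT libraries measured 14.99 and 12.9 TPM at CON, 12.2 and 11.97 after 1 h of FSK and 19.5 and 18.3 after 16 h of Ex-4. Med14 S983A libraries measured 15.5 and 15.3 TPM at CON and 18.4 and 19.9 after 1 h of FSK. The WT value after 16 h of Ex-4, 0.42, passed in the other 4 scalings (0.59 to 0.76), and that after 8 h of FSK, 0.22, after median centring (0.61).

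The ratio of Pdp2 to Pdp1 moved with these. It was 0.804 and 0.710 at CON in WT and 0.516 and 0.513 after 1 h of FSK. In Med14 S983A it was 0.866 and 0.989 at CON and 2.10 and 2.19 after 1 h of FSK, the highest pair of all groups. At 16 h of FSK the pairs lay near each other, at 1.53 and 1.52 in WT and 1.52 and 1.37 in the mutant.

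**Figure D3:**
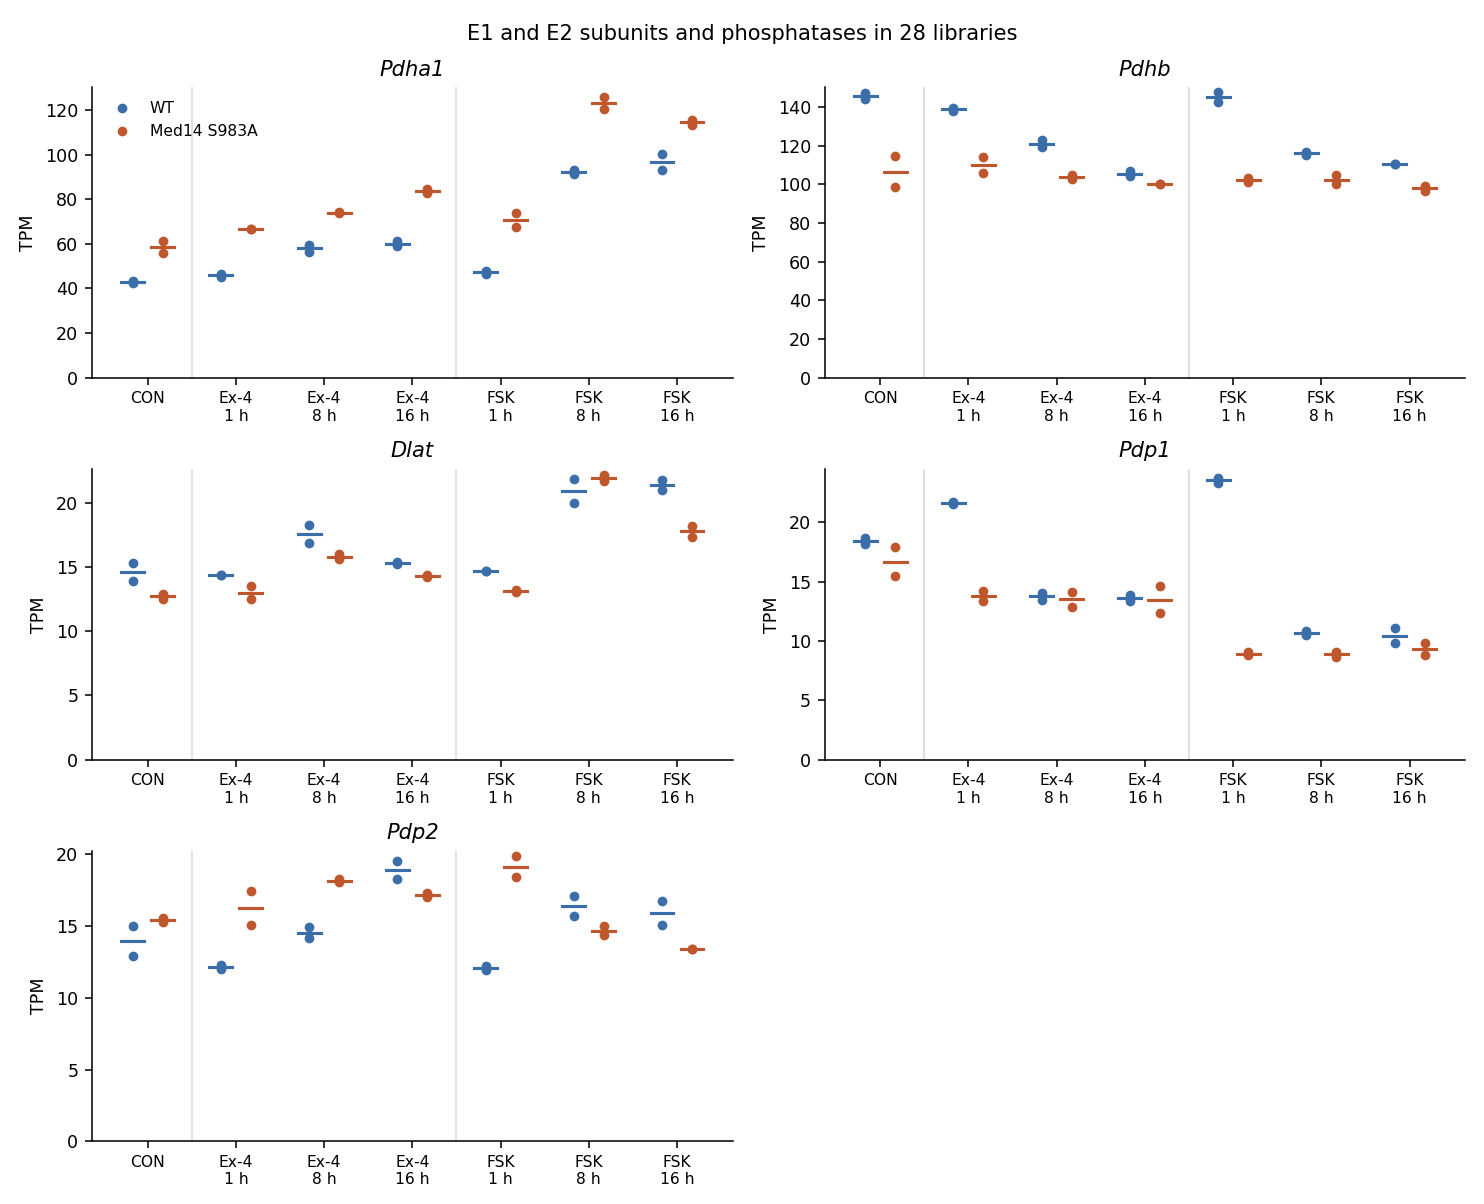
TPM (linear axes from 0) of Pdha1, Pdhb, Dlat, Pdp1 and Pdp2 in each of 28 libraries, WT in blue and Med14 S983A in orange, with bars at the mean of 2. Pdha1 climbs to 123.1 TPM in the mutant at 8 h of FSK, Pdhb stays between 96.7 and 147.6 TPM, and Pdp1 at 1 h of FSK is 23.5 TPM in WT and 8.91 TPM in Med14 S983A.

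Counted by treatment, in WT 0, 2 and 1 of the 8 genes passed after 1, 8 and 16 h of Ex-4, beside 2.87%, 9.6% and 11.8% of all tested genes, and 0, 4 and 3 passed with FSK, beside 7.47%, 43.6% and 34.5%. In Med14 S983A 0, 1 and 1 passed with Ex-4, beside 3.04%, 6.3% and 11.9%, and 1, 5 and 3 with FSK, beside 10.4%, 46.1% and 33.3%. Over the 6 treatments this gave 10 of 48 gene-by-treatment tests in WT, where 18.3% of all tests passed, and 11 of 48 in Med14 S983A, where 18.5% passed. The counts were near the shares of all genes. The balance of direction depended on scaling, since the WT calls were 2 higher and 8 lower on TPM and 7 higher and 4 lower after median centring. The median log2 difference of the 8 genes was -0.24 after 8 h of FSK in WT and -0.06 in Med14 S983A, beside -0.34 and -0.28 over all genes.

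**Figure D4:**
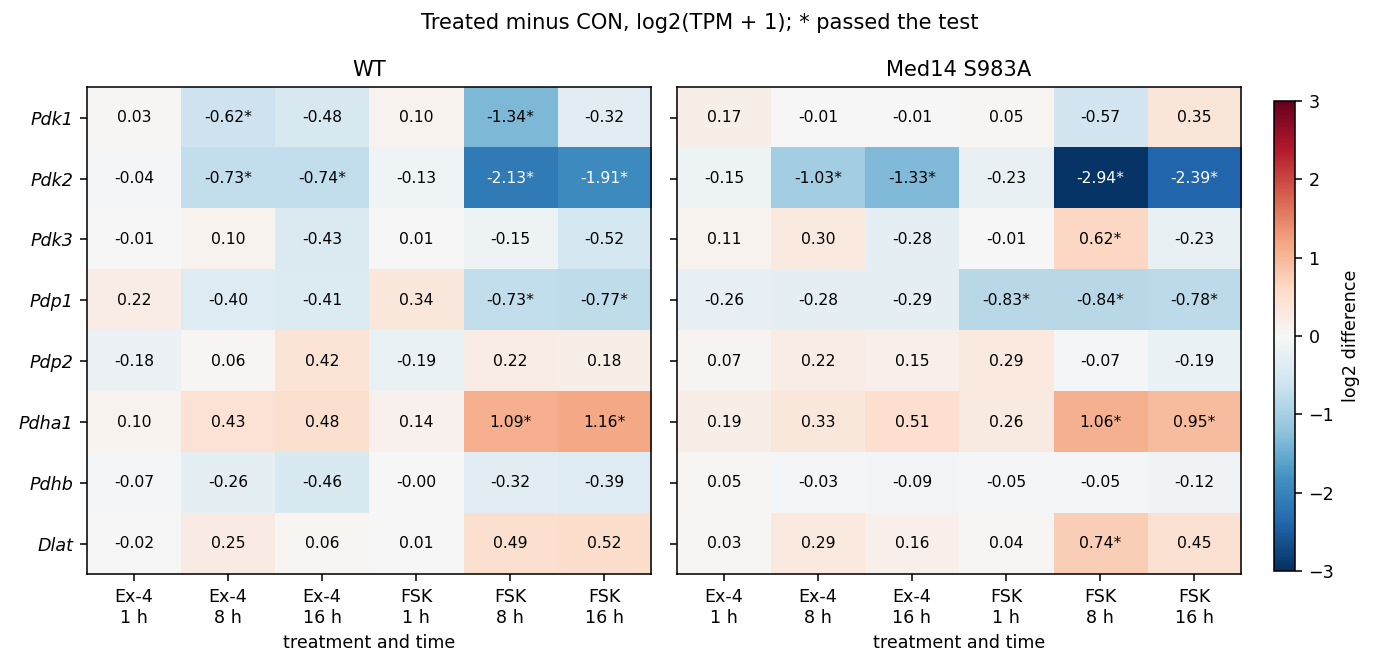
Log2(TPM + 1) difference of treated cells from CON of the same genotype for the 8 tested genes (rows) at each agent and time (columns), WT left and Med14 S983A right, with red higher, blue lower and an asterisk where the test passed. The Pdk2 row is lowest, at -2.94 in Med14 S983A after 8 h of FSK, and the Pdha1 row is highest, at 1.16 in WT after 16 h of FSK.

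Untreated cells of the 2 genotypes were compared to ask what differed before any stimulus. No gene of the set passed at CON, beside 19.4% of all tested genes, while 5 of 8 had an adjusted p under 0.05 without the fold limit, beside 66.2% of all genes. Pdk3 was higher in Med14 S983A by 0.56 ± 0.0600 (67.2 against 45.2 TPM, adjusted p = 1e-08), a ratio of 1.48 that lay just under the limit. It passed in the other 4 scalings (0.65 to 0.77) and with replicate 2 of Med14 S983A CON left out (0.63). Pdha1 differed by 0.45 (58.7 against 42.7 TPM) and passed with ERCC scaling (0.64) and DESeq2 (0.66). Pdhb differed by -0.45 (106.5 against 145.4 TPM), Pdk1 by -0.40 (36.9 against 49.0 TPM) and Dlat by -0.19.

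Because the mutant lines are clones, values of chromosomal neighbours were set beside these. Among the 50 nearest tested genes, the median difference between genotypes at CON was -0.02 for Pdk3 and -0.003 for Pdha1, both on the X chromosome, -0.17 for Pdk1, -0.31 for Pdhb, -0.12 for Pdk2, -0.10 for Pdp1 and 0.04 for Dlat, and 0.33 over 26 neighbours of Pdp2. Read against 0, the neighbours of Pdk1, Pdk2, Pdp1, Pdp2 and Pdhb lay on the same side as the gene itself. Those of Pdk3, Pdha1 and Dlat did not. The median over all genes in this comparison was itself below 0, at -0.068. Read against that value, the neighbours of Pdk3 and Pdha1 also lay on the side of their gene, and those of Dlat did not. The sides therefore depended on the reference level, and the neighbours were examined on TPM only. The part of the neighbours in the difference was not tested.

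The interaction contrasts asked whether Med14 S983A cells responded differently from WT cells. In Ex-4, 0, 1 and 1 of the 8 genes passed at 1, 8 and 16 h, beside 0.672%, 2.77% and 7.24% of all genes. In FSK, 1, 3 and 1 passed, beside 1.64%, 13.9% and 17%. Together 7 of 48 tests passed where 7.2% of all tests did. On TPM the 7 calls fell on 3 kinases and Pdp1. Pdp2 at 16 h of Ex-4 was at -0.27 on TPM and passed with ERCC scaling (-0.68) and DESeq2 (-0.70).

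Pdk2 fell further in the mutant at 8 h of FSK (-0.81 ± 0.0800, adjusted p = 7.1e-09) and at 16 h of Ex-4 (-0.59, adjusted p = 2.1e-06), calls that held in all 5 scalings. The call at 16 h of Ex-4 was lost without replicate 2 of WT CON (-0.54), of WT after 16 h of Ex-4 (-0.56) or of Med14 S983A CON (-0.57). At 16 h of FSK its difference was -0.48, which passed with ERCC scaling (-0.64), edgeR (-0.63) and DESeq2 (-0.68). Pdk1 fell less in the mutant at 8 h of FSK (0.78 ± 0.0759, adjusted p = 6.6e-09), also in all 5. The Pdk1 calls at 8 h of Ex-4 (0.61) and 16 h of FSK (0.67) were lost in the 4 other scalings, with 0.47 to 0.55 and 0.52 to 0.59. The first was also lost when replicate 1 of WT CON (0.55), replicate 2 of Med14 S983A CON (0.58) or replicate 1 of Med14 S983A after 8 h of Ex-4 (0.57) was left out.

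Pdk3 differed at 8 h of FSK (0.78 ± 0.0849, adjusted p = 4.1e-08) in all 5 scalings, so that at this time all 3 expressed kinases responded differently in the genotypes, Pdk2 in one direction and Pdk1 and Pdk3 in the other. Pdp1 had the largest interaction of the set, at 1 h of FSK (-1.17 ± 0.1081, adjusted p = 2.8e-08), again in all 5. At 1 h of Ex-4 it was -0.48 (adjusted p = 0.0164), under the fold limit. For Pdha1 the interaction was -0.03 at 8 h of FSK and -0.21 at 16 h, and for Dlat 0.25 and -0.07, none of which passed.

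**Figure D5:**
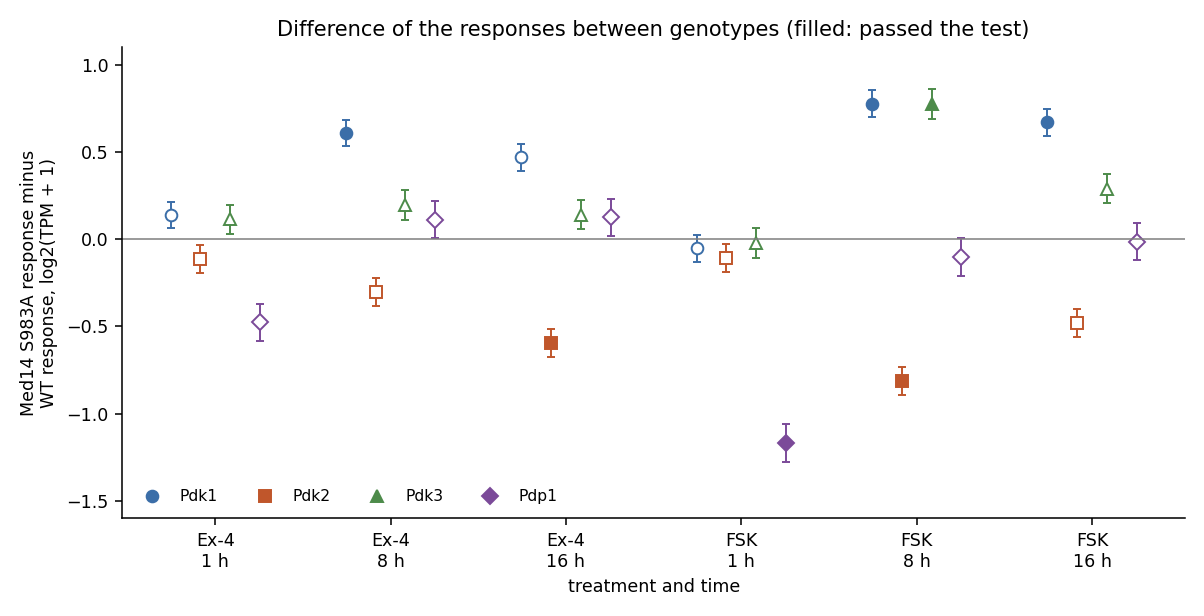
Response of Med14 S983A cells minus response of WT cells, each against its own CON on the log2(TPM + 1) scale, for Pdk1, Pdk2, Pdk3 and Pdp1, with error bars of 1 SE and filled symbols where the test passed. At 8 h of FSK Pdk1 (0.78) and Pdk3 (0.78) lie above 0 and Pdk2 (-0.81) below it, and Pdp1 lies at -1.17 at 1 h of FSK.

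Ex-4 and FSK both raise cAMP, and they were compared at matched times. In WT 0, 3 and 2 of the 8 genes passed at 1, 8 and 16 h, beside 1.79%, 28.1% and 18.7% of all genes, and in Med14 S983A 0, 2 and 1 passed, beside 3.03%, 36.5% and 16.3%. Pdk2 was higher with Ex-4 than with FSK at 8 and 16 h in both genotypes, by 1.39 and 1.17 in WT and by 1.91 and 1.06 in Med14 S983A (SE 0.0566, adjusted p from 7.3e-20 to 2.2e-14). These 4 differences passed in all 5 scalings. With Ex-4 Pdha1 lay below its FSK level at 8 and 16 h in WT (-0.66 and -0.68) and at 8 h in Med14 S983A (-0.73), of which the first was lost with ERCC scaling (-0.54) and DESeq2 (-0.50). Pdk1 was higher with Ex-4 at 8 h in WT (0.72), a call lost after median centring (0.46) and with edgeR (0.52). With ERCC scaling and DESeq2 more differences passed in Med14 S983A, among them Pdk1 (-0.71 and -0.69), Pdha1 (-0.79 and -0.77) and Dlat (-0.63 and -0.64) at 16 h, all lower with Ex-4. With the same scalings Pdp1 at 1 h (0.75 and 0.82) and at 8 h (0.64 and 0.71) and Pdk1 at 8 h (0.65 and 0.67) passed as higher with Ex-4. After median centring and with edgeR, Pdk3 (-0.63 and -0.59) and Dlat (-0.75 and -0.73) passed as lower with Ex-4 at 8 h in Med14 S983A. At 1 h none passed on TPM, and the differences of Pdk2 were 0.09 and 0.08.

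Ordered by level, Pdk2 ran from 54.3 TPM in WT CON to 5.82 TPM in Med14 S983A after 8 h of FSK, a ratio of 9.32. Of the 13 neighbouring pairs of groups in that order, 4 overlapped. Pdha1 ran from 42.7 TPM in WT CON to 123.1 TPM in Med14 S983A after 8 h of FSK, with 3 of 13 neighbouring pairs overlapping. Pdk3 spanned a ratio of 3.33, Pdk1 of 2.82, Pdp1 of 2.65, Dlat of 1.72, Pdp2 of 1.58 and Pdhb of 1.48.

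Across the 14 group means, each of 2 libraries of its own and 7 of each genotype, Pdk2 and Pdha1 correlated at r = -0.93, Pdk2 and Dlat at -0.85 and Pdha1 and Pdp1 at -0.87. Pdk3 correlated with the other kinases at only -0.14 and -0.16. Over the 7677 genes whose mean reached 10 TPM, those most like Pdk2 were Arf5 (r = 0.991), Dynlt1 (0.987) and Siae (0.987). Those most like Pdk3 were Cep76 (0.970), Magoh (0.963) and Psme4 (0.956), and those most like Pdk1 were Lad1 (0.917), Epdr1 (0.906) and Adgre5 (0.904). These correlations describe likeness of pattern.

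Genes around the complex were counted in 5 lists, on TPM alone. Of 41 symbols, 33 were tested, and over the 6 treatments 43 of 198 tests (21.7%) passed in WT and 45 of 198 (22.7%) in Med14 S983A, beside 18.3% and 18.5% over all genes. The other parts of the complex and of its phosphatase (Pdhx, Dld and Pdpr) gave 2 of 18 calls in WT and 3 of 18 in Med14 S983A. Pdpr, the regulatory subunit of the phosphatase, accounted for 4 lower calls and Dld, the E3 subunit, for 1 higher call, and Pdhx had none. The cofactor genes for lipoate and thiamine gave 7 of 30 and 5 of 30.

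Pyruvate carriers and other pyruvate enzymes gave 10 of 60 calls in WT and 17 of 60 in Med14 S983A. Mpc1 and Mpc2, which carry pyruvate into mitochondria, had none. Ldhb, a lactate dehydrogenase subunit, rose in 9 of 12 treatments, with 80.2 and 77.6 TPM at CON and 286.8 and 290.6 after 1 h of FSK in WT, and 20.9 and 21.4 against 105.1 and 104.6 in Med14 S983A. Ldha was listed at or near 0. Gpt2, which interconverts pyruvate and alanine, rose in 6 of 12 and reached 50.7 TPM in WT after 16 h of FSK from 9.43 at CON. Slc16a1, a monocarboxylate transporter, rose in 5 of 12, to 18.7 TPM in WT after 16 h of FSK from 7.35 at CON and to 96.2 TPM in Med14 S983A at that time from 9.68.

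The related oxoacid dehydrogenases and their regulators gave 10 of 48 and 9 of 48 calls. Of the E1 subunits of the branched-chain complex, Bckdha had only lower calls and Bckdhb only higher ones. Of the pair Pdha1 and Pdhb only Pdha1 had a call on TPM. Bckdha fell in 7 of 12 treatments, from 36.3 to 5.55 TPM in WT and from 57.6 to 6.07 TPM in Med14 S983A after 8 h of FSK. Bckdhb rose in 4 of 12, among them WT after 16 h of FSK (44.3 TPM against 20.2 at CON). In Med14 S983A after 8 h of FSK Bckdhb did not rise (16.9 TPM against 18.4 at CON). Factors known to act on Pdk genes gave 14 of 42 and 11 of 42 calls. Ppargc1a, a coactivator of mitochondrial genes, rose in all 12, and after 8 h of FSK it stood at 37.3 and 35.1 TPM in WT against 3.29 and 2.46 at CON, and at 28.8 and 25.2 against 1.89 and 2.27 in Med14 S983A. Hif1a had no call, and Ppara and Pparg were under 1 TPM.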

How the data were processed

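Bulk RNA-seq of INS-1 cells was analysed from the processed tables of 28 libraries in 14 groups. The 9 genes, the 5 gene lists, the motifs and the tests were chosen with earlier results of these data known. Group and replicate came from the sample titles. Numbering in the table columns differs from that in the labels, and columns were matched by genotype, treatment, hours and replicate. The authors aligned reads to rn6 plus the ERCC spike-in sequences with STAR 2.5.3a and quantified transcripts with HOMER 4.11.1. What they deposited is TPM per transcript, taken here without change. A second deposited file gives read counts for the 92 spike-ins, for which the processing notes name QoRTs 1.3.6. Equal masses of RNA received the spike-ins, so that scaling to them is relative to RNA mass and says nothing of RNA in a cell.

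Of 19223 rows, 1676 further transcripts of a symbol were dropped, which left 17455 symbols. Log2(TPM + 1) of the 10275 genes whose mean reached 1 TPM was fitted with limma 3.58.1 (eBayes with trend, R 4.3.3) on 14 group means, with 14 residual degrees of freedom. Tests were two-sided, and p-values were adjusted by Benjamini-Hochberg over all genes within each of 25 contrasts. On simulated data with 200 changed genes the fit was checked and recovered nearly all changes. Fragments were recovered as TPM times length. The check used 146783 gene values above 0 and under 1000 whose rounding error was small. All came out whole at 2 reads per fragment, within 0.05 reads plus the rounding of TPM (20.3% by chance). The recovered fragments entered edgeR 4.0.16 and DESeq2 1.42.0 as alternatives. The other alternatives were a pseudocount of 0.1, no filter, a minimum mean of 5 TPM, median centring, ERCC scaling, no fold minimum, a replicate block and leaving out each library. Replicates differed by more than counting noise (chi-square per degree of freedom 2.47 to 9.83). Positions in rn6 come from the table and promoters from RefSeq on GRCr8, and the builds were not mixed. The 9 genes are all named, and of the lists the 6 genes called in the most treatments, ties going by alphabet, plus genes named to describe a count, chosen after their values were seen.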

Additional observations from a re-analysis of the deposited data

Results flagged for a closer look

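The responses of Med14 S983A and WT cells differed by an interaction test in 7 cases, which are listed for a closer look. On the log2 scale, response in Med14 S983A minus response in WT, the differences were 0.6087, 0.7772 and 0.6703 for Pdk1 at 8 h of Ex-4, 8 h of FSK and 16 h of FSK. For Pdk2 they were -0.5942 at 16 h of Ex-4 and -0.8147 at 8 h of FSK. Pdk3 differed by 0.7769 at 8 h of FSK and Pdp1 by -1.1681 at 1 h of FSK. Each rests on 2 libraries in each of 4 groups, and the CON libraries of a genotype are shared by all 6 of its treatments. No group had enough libraries to look for a single outlying one.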

How the results depend on the processing

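The counts of calls among the 9 genes were 10 (WT treatments), 11 (Med14 S983A treatments), 0 (genotype at CON), 7 (interaction) and 8 (Ex-4 against FSK). Without a fold minimum they were 33, 32, 5, 22 and 28. Genotype at CON gave 1 call after median centring and 1 with edgeR, and 2 with either ERCC method, and Ex-4 against FSK gave 13 with ERCC scaling and 13 with DESeq2. The other counts were 11, 11, 5 and 9 after median centring, those with ERCC scaling 10, 11 and 7, and 12, 11, 6 and 9 with edgeR and 10, 13 and 7 with DESeq2. Leaving out each library gave 10 to 10, 11 to 12, 0 to 1, 5 to 7 and 8 to 10 calls, and without replicate 2 of Med14 S983A CON, Pdk3 passed at CON. The replicate block changed none of 200 calls, and the counts stayed at 10, 11, 0, 7 and 8. The correlation of deviations of same-numbered libraries was -0.28 to 0.283 over 91 pairs of groups (median 0.00346, 17 over 0.1), so the numbers were not taken as pairs. A filter at 5 TPM and no filter changed no call, and a pseudocount of 0.1 added 2.

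Where a sign turned and the adjusted p was under 0.05 on TPM or under the alternative, the values are given below. None is of a difference that passed on TPM, and the cause was not tested. Other signs turned with neither p under 0.05, such as those of the 16 h Ex-4 interaction of Pdk3 (0.14 to -0.28), Pdp1 (0.13 to -0.30) and Dlat (0.09 to -0.32) and of Pdk2 at CON (-0.08 to 0.12). After median centring, in Pdk3 from -0.15 to 0.24 (WT 8 h FSK), from -0.01 to 0.14 (Med14 S983A 1 h FSK) and from 0.26 to -0.012 (WT 8 h, Ex-4 minus FSK), in Pdp2 from -0.07 to 0.27 (Med14 S983A 8 h FSK) and from 0.29 to -0.015 (Med14 S983A 8 h, Ex-4 minus FSK), and in Pdhb to 0.13, 0.066, 0.28 and 0.034 (WT 1 and 8 h FSK, Med14 S983A 8 and 16 h FSK) and to -0.21 and -0.28 (Ex-4 minus FSK at 8 h, WT and Med14 S983A). With edgeR, Pdk3 gave 0.17 and Pdp2 0.20 in the 8 h FSK comparisons named for them, and Pdhb 0.13, 0.22, -0.18 and -0.24 in the 1 h WT, 8 h Med14 S983A and both 8 h agent comparisons. With ERCC scaling and DESeq2 (in that order), Pdk1 gave 0.058 and 0.051 (WT 16 h FSK), Pdp2 0.030 and 0.022 and Pdhb 0.12 and 0.10 (Med14 S983A 16 h FSK), Pdha1 -0.40 and -0.40 and Pdhb -0.058 and -0.047 (16 h Ex-4 interaction), and Pdhb -0.32 and -0.29 (Med14 S983A 16 h, Ex-4 minus FSK), and Pdk3 gave 0.0005 with ERCC scaling (Med14 S983A 16 h FSK). Having 2 libraries per group and not knowing the clone of each library limits all comparisons. Levels between genes are per length, and Pdk4, at about 2 fragments in all, is below what this depth can measure.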
